A study of Mus musculus with 6 samples.

Results

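The 10 genes described here encode the sensors of the unfolded protein response (UPR) and the core of the integrated stress response, and were measured in the liver of 2 mouse substrains. They were chosen by symbol: Ern1, Eif2ak3 and Atf6 for the sensors, Xbp1, Atf4 and Ddit3 for their transcription factors, Asns, Trib3 and Chac1 for the targets, and Ppp1r15a for the feedback arm. All 10 were found among 22180 genes with a probe set of 1 gene symbol on the array, each with a single probe set, so no choice between probe sets arose. The arrays hold 3 Balb/c mice, labelled WT, and 3 Balb/cBy mice, labelled KD. All 6 were males of 20 weeks that had eaten a high-fat diet, with 58% of its energy as fat, for 12 weeks from the age of 8 weeks. Each array is 1 liver, and the labels call the 3 of a group biological replicates. No mouse on a control diet was analysed here. The labels name no gene for KD; as background, mice of this substrain lack part of Acads, the gene of the short-chain acyl-CoA dehydrogenase.

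The endoplasmic reticulum (ER) folds the proteins a cell secretes, and hepatocytes secrete most plasma proteins. When unfolded proteins build up there, IRE1 (Ern1) splices the Xbp1 mRNA, ATF6 travels to the Golgi and is cut into a transcription factor, and PERK (Eif2ak3) phosphorylates the translation factor eIF2. Phosphorylated eIF2, which other kinases also produce on amino acid shortage, heme shortage or viral RNA, slows translation in general and favours that of ATF4, and this shared arm is the integrated stress response. The sensors act through splicing, cleavage and phosphorylation, none of which these arrays measure: each probe set gives 1 mRNA level per gene, with spliced and unspliced Xbp1 together.

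Of the 10 genes, 9 read higher and 1 lower in Balb/cBy, with a median difference of 0.27 on the log2 scale against -0.0028 over all genes. The highest differences were those of Ddit3, Asns, Xbp1 and Atf4, at 1.27 to 1.38 times the Balb/c level, and Trib3 and Chac1 differed by less than 0.01. None passed limma's adjusted p of 0.05, nor did any other of the 22180 genes (0% passed), and the adjusted p was 0.999 for each of the 10. At an unadjusted p under 0.05 there were 4 of the 10, all higher in Balb/cBy, against 2.59% of all genes higher and 1.15% lower. In 6 of the 10 the 3 Balb/cBy arrays all read above the 3 Balb/c arrays, against 4.32% of all genes, and in 0 of the 10 all read below, against 3.51%. With 3 against 3 arrays an exact permutation test of a single gene cannot give a p under 0.1. The 4 counted at the unadjusted threshold became 2, Atf4 and Asns, without Balb/c replicate 2 (all genes 1.42%) or without Balb/cBy replicate 2 (all genes 1.20%), and 6 without Balb/cBy replicate 1 (all genes 5.16%).

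**Figure D1:**
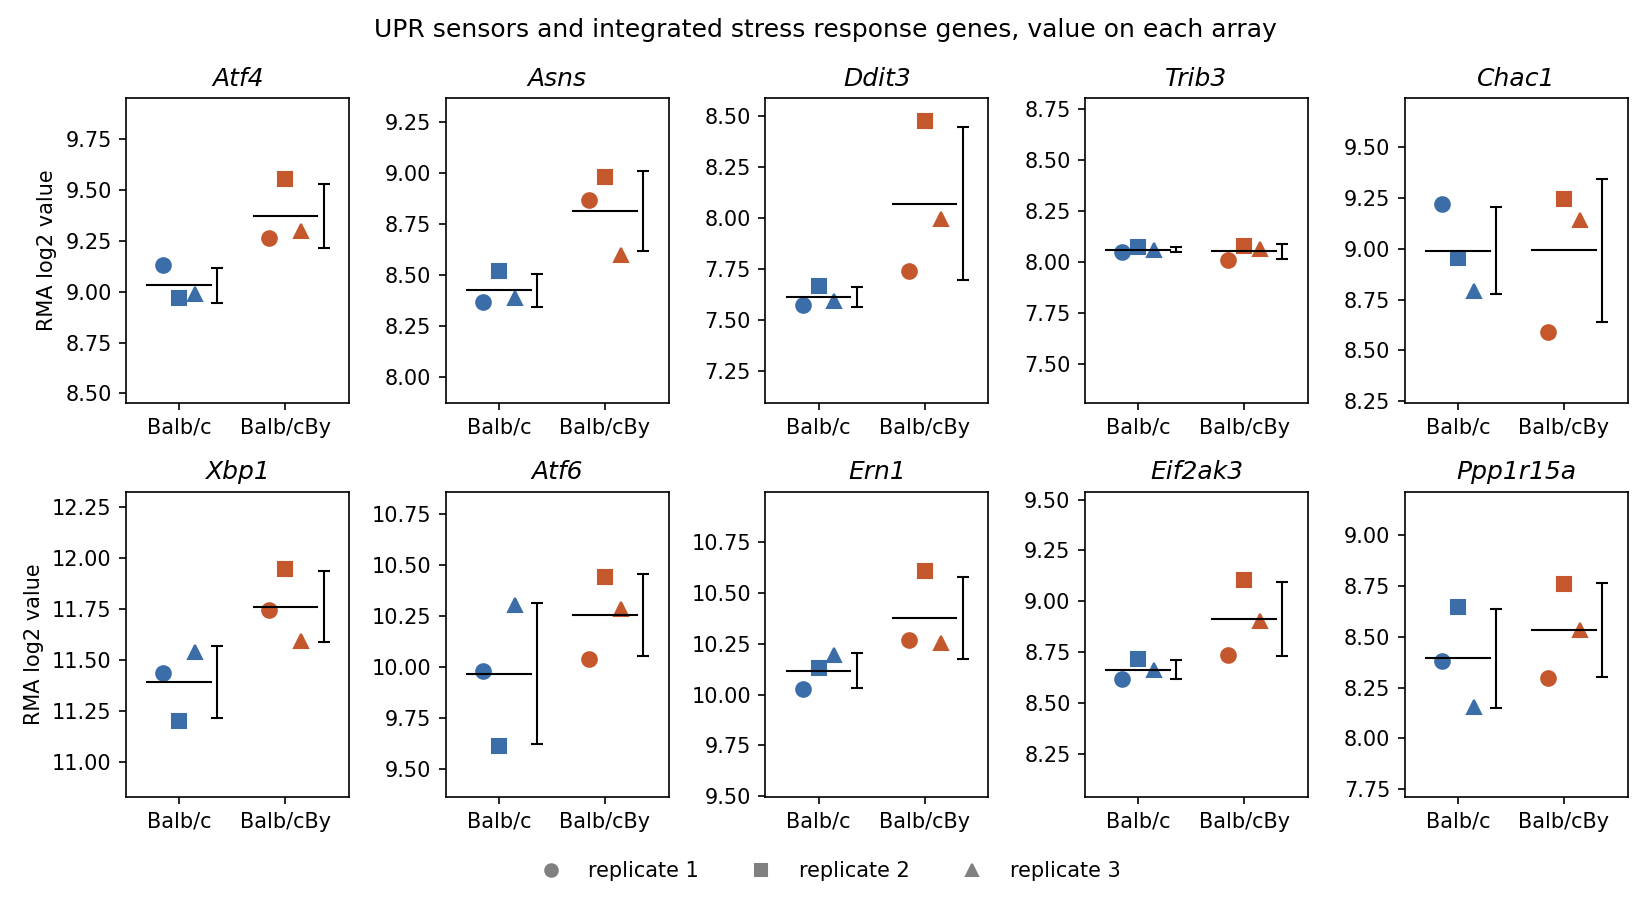
RMA log2 value (y axis) of each of the 10 genes on the 3 Balb/c arrays (blue) and the 3 Balb/cBy arrays (orange); the symbol gives the replicate number, the horizontal line the group mean and the bar beside it 1 SD. Each panel spans 1.5 log2 units around its gene's mean, so spreads compare across panels and heights do not; the groups do not overlap for Atf4, Asns, Ddit3, Xbp1, Ern1 and Eif2ak3, and the square of Balb/cBy replicate 2 is the highest point in all 10 panels.

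The arrays were alike as a whole, and Pearson correlations across genes spanned 0.977 to 0.990 for pairs of one group and 0.977 to 0.991 for pairs of different groups. Array weights, which limma estimates as a measure of quality, had their minimum of 0.471 on Balb/cBy replicate 1, and the next was 0.635 on Balb/c replicate 3. Acads itself averaged 11.43 ± 0.13 on the Balb/c arrays and 10.77 ± 0.17 on the Balb/cBy arrays (SD, n = 3 each). Its difference of -0.65 ± 0.12 (SE) had an adjusted p of 0.319 by limma, and whether its probes fall inside the missing part is unknown here. The 7 hepatocyte markers, Alb and Ttr among them, averaged 12.86 to 12.98 on the Balb/c arrays and 12.93 to 13.09 on the Balb/cBy arrays, so the tissue matched its label. In whole liver, fewer cells of a type and less RNA per cell cannot be told apart.

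The 3 sensors read higher in Balb/cBy by similar amounts, each with an interval that included 0. Ern1, whose protein is both kinase and RNase, read 10.03, 10.13 and 10.20 in Balb/c and 10.27, 10.61 and 10.25 in Balb/cBy. The groups lay apart by 0.06, the difference was 0.26 ± 0.12 (SE, 95% interval -0.02 to 0.54), and Balb/cBy replicate 2 stood above the other arrays. Eif2ak3, the gene of PERK, read 8.62, 8.71 and 8.66 in Balb/c and 8.73, 9.10 and 8.90 in Balb/cBy. Its lowest Balb/cBy array lay 0.02 above the highest Balb/c array, and the difference was 0.25 ± 0.11 (SE, 95% interval -0.01 to 0.51). Atf6, which encodes the membrane-bound factor released by cleavage, read 9.98, 9.61 and 10.31 in Balb/c and 10.04, 10.44 and 10.29 in Balb/cBy. Here the groups overlapped, since Balb/c replicate 3 read above 2 of the Balb/cBy arrays, and the difference was 0.29 ± 0.18 (SE, 95% interval -0.13 to 0.71). The difference of Atf6 was 0.11 without Balb/c replicate 2, its lowest array, and 0.46 without Balb/c replicate 3.

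The 3 transcription factors each read higher on every Balb/cBy array than on any Balb/c array. Xbp1, the factor made from the mRNA that IRE1 splices, read 11.44, 11.20 and 11.54 in Balb/c and 11.74, 11.94 and 11.59 in Balb/cBy. The gap between the groups was 0.05, and the difference 0.37 ± 0.13 (SE, 95% interval 0.07 to 0.67). Atf4, the factor translated when eIF2 is phosphorylated, read 9.13, 8.97 and 8.99 in Balb/c and 9.27, 9.55 and 9.30 in Balb/cBy. Its gap of 0.13 was the widest of the 10 genes, and its difference was 0.34 ± 0.11 (SE, 95% interval 0.09 to 0.60).

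Ddit3, which encodes CHOP, a factor tied to cell death under lasting ER stress, had the largest difference and the most uneven one. It read 7.57, 7.66 and 7.59 in Balb/c and 7.74, 8.48 and 7.99 in Balb/cBy. The Balb/c arrays lay close together (7.61 ± 0.05, SD, n = 3), while the Balb/cBy arrays spread widely (8.07 ± 0.38, SD, n = 3). The difference was 0.46 ± 0.17 (SE, 95% interval 0.06 to 0.86), and 0.26 without Balb/cBy replicate 2. Ddit3 was also dim: on 5 of 6 arrays it lay at or under 8.02, the 95th percentile of the mean level of 1105 olfactory receptor genes. These receptors serve here as a stand-in for background, and RMA pulls values at that end together, which understates differences there.

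The 3 targets split: Asns stood apart between the groups, while Trib3 and Chac1 did not. Asns, asparagine synthetase, which makes asparagine from aspartate and glutamine, read 8.37, 8.52 and 8.39 in Balb/c and 8.87, 8.98 and 8.60 in Balb/cBy. The groups did not overlap, with a gap of 0.08, and the difference was 0.39 ± 0.12 (SE, 95% interval 0.12 to 0.67), or 1.31 times the Balb/c level. Trib3, a pseudokinase that restrains ATF4 and AKT, read 8.05, 8.07 and 8.06 in Balb/c and 8.01, 8.08 and 8.06 in Balb/cBy. Its 6 arrays spanned 0.07, and 0.216% of all genes had a smaller range, at a mean level just above the olfactory receptor level. The difference was -0.0085 ± 0.08 (SE, 95% interval -0.20 to 0.18), which bounds it between 0.870 and 1.14 times the Balb/c level as measured.

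Chac1, which degrades glutathione, varied among mice of both groups. It read 9.22, 8.96 and 8.79 in Balb/c and 8.59, 9.24 and 9.14 in Balb/cBy, so both the lowest and the highest array belonged to Balb/cBy. The difference was 0.0027 ± 0.19 (SE), and its 95% interval runs from 0.745 to 1.35 times the Balb/c level. Changes of the size seen for Asns or Atf4 lie within that interval, so for Chac1 they could not be told from no difference.

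ATF4 binds composite C/EBP-ATF elements, and the promoters of these genes were searched for the core letters TGATGNAA on both strands, where N is any base. The windows, from 250 bases before to 50 after the start, came from RefSeq (build GRCm38.p6) and covered 9 of the 10 genes, Atf6 being the other. The letters occurred in 3 of the 9, Asns, Trib3 and Chac1, and in 3.97% of all 32851 windows. The upstream 250 bases of Asns (chr6:7693210-7693459, minus strand) and Chac1 (chr2:119350992-119351241, plus strand) are shown because the pair holds the same core but differs in its readings, with the matched bases in capitals.
Asns: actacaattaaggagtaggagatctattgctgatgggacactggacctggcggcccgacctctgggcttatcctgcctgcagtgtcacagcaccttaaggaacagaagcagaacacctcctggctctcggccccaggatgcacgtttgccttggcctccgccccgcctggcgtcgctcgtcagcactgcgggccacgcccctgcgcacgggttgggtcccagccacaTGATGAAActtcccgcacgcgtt
Chac1: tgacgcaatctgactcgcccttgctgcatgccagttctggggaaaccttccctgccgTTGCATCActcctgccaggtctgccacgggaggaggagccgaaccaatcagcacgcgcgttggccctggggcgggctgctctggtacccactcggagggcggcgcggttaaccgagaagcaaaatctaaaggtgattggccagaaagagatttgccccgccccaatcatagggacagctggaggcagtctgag

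Counted from the start, with bases before it negative, the match in Asns lies at -23 to -16. In Chac1 it lies at -193 to -186 on the opposite strand, where it reads TGATGCAA. The match of Trib3, TGATGTAA on the opposite strand, lies at 15 to 22, outside the bases shown. Among the other ATF4 and CHOP targets listed below that were measured, the letters occurred in Slc7a11, Slc1a4, Pck2, Atf3, Nupr1, Vldlr, Fgf21 and Jdp2, whose differences ran from -0.21 for Fgf21 to 0.48 for Atf3. A match describes the letters alone, and the genes that hold it read both higher and lower in Balb/cBy.

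Ppp1r15a encodes GADD34, the stress-induced subunit that directs a phosphatase to eIF2 and so ends the response. It read 8.38, 8.64 and 8.16 in Balb/c and 8.30, 8.76 and 8.53 in Balb/cBy. The groups overlapped, and the difference was 0.14 ± 0.16 (SE, 95% interval -0.23 to 0.50), or 0.02 without Balb/cBy replicate 2 or Balb/c replicate 3 and 0.25 to 0.26 without Balb/cBy replicate 1 or Balb/c replicate 2. Its constitutive counterpart Ppp1r15b went the other way, at -0.23 ± 0.10 (SE), with all 3 Balb/cBy arrays below the Balb/c arrays, and at -0.15 without Balb/c replicate 2.

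**Figure D2:**
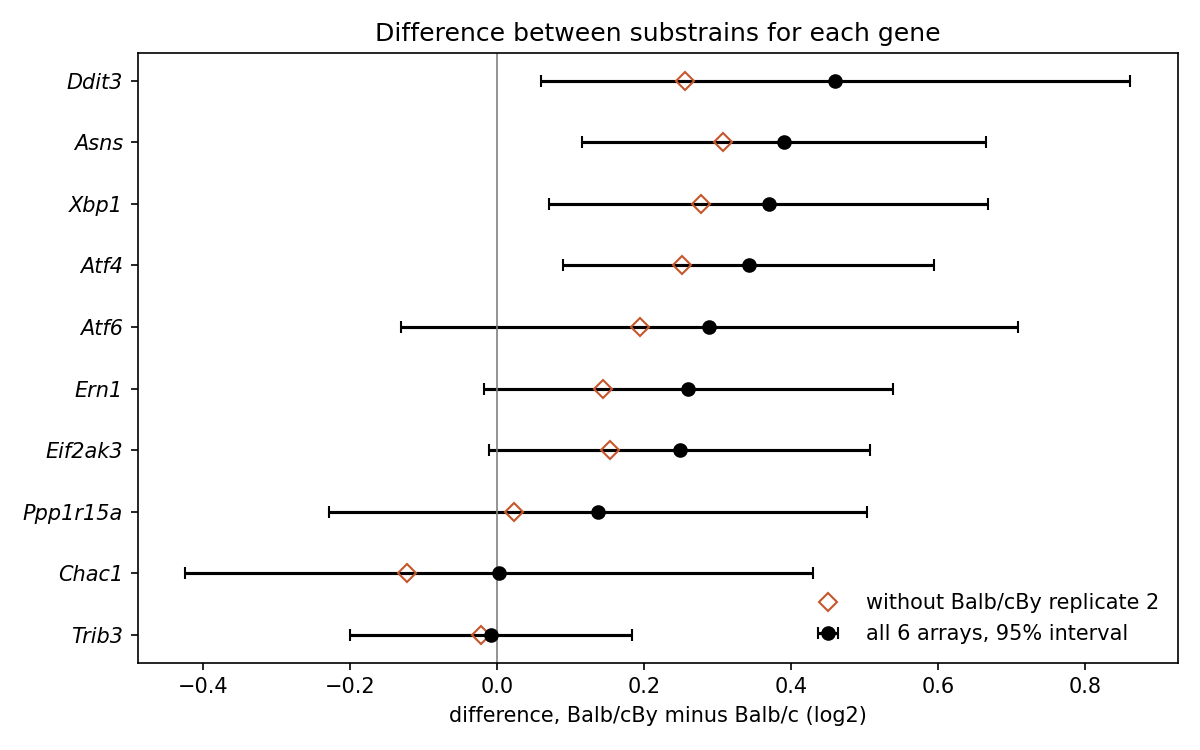
Difference between the substrains (x axis, Balb/cBy minus Balb/c, log2) for the 10 genes. Filled points and bars give limma's estimate and 95% interval over all 6 arrays, and open diamonds the estimate without Balb/cBy replicate 2. The intervals of Ddit3, Asns, Xbp1 and Atf4 lie above 0 before adjustment. Every diamond lies below its filled point, which follows from that array being the highest for all 10 genes.

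Within the Balb/cBy group, replicate 2 was the highest array for all 10 genes, a pattern noticed after the values were seen. Over all genes, 21.7% had their highest value on that array. Relative to each gene's own mean over the 6 arrays, the median of the 10 genes was 0.34 on Balb/cBy replicate 2, 0.08 on replicate 3 and -0.05 on replicate 1, against -0.16 to -0.11 on the Balb/c arrays. Leaving out replicate 2, the highest array, must lower each difference. The median difference of the 10 genes moved from 0.27 to 0.17, with 8 of 10 higher in Balb/cBy. The groups did not overlap in 6 of 10 there, against 6.73% of all genes, since 2 arrays against 3 separate more easily. Ern1 moved to 0.14, Eif2ak3 to 0.15, Atf4 to 0.25, Xbp1 to 0.28 and Asns to 0.31. Atf3, a stress-induced factor downstream of ATF4 that was singled out after its values were seen, had the same top array: it read 9.49 on Balb/cBy replicate 2 and 8.07 to 8.47 on the other 5.

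Target genes of the ATF6 arm are given beside the 10 genes. Of 13 measured, which are ER chaperones and parts of ER-associated degradation, 13 read higher in Balb/cBy, with a median of 0.46. At an unadjusted p under 0.05 there were 9, all higher, against 2.59% of all genes higher. In 9 the Balb/cBy arrays all read above the Balb/c arrays, against 4.32% of all genes. Creld2, an ER disulfide isomerase, led at 1.22 ± 0.15 (SE), followed by Syvn1, a ubiquitin ligase that marks misfolded ER proteins for degradation, at 0.83 ± 0.11, Hyou1, an ER chaperone, at 0.78 ± 0.11, and Manf, a secreted ER stress protein, at 0.65 ± 0.09. Each of these had an adjusted p of 0.177 by limma. The highest array was Balb/cBy replicate 1 for 9 of the 13 and replicate 2 for 3, whereas replicate 1 was the highest for 0 of the 10 sensor and stress response genes and for 20.9% of all genes. Creld2, for example, read 12.10 on replicate 1, 11.69 on replicate 2 and 11.55 on replicate 3, against 10.52 to 10.64 in Balb/c, while Chac1 and Ddit3 had their lowest Balb/cBy value on replicate 1. Without Balb/cBy replicate 2 the median of the 13 was 0.54, and without Balb/cBy replicate 1 it was 0.45, with 12 of 13 higher in each case. Whether the lists differ from each other was not tested.

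**Figure D3:**
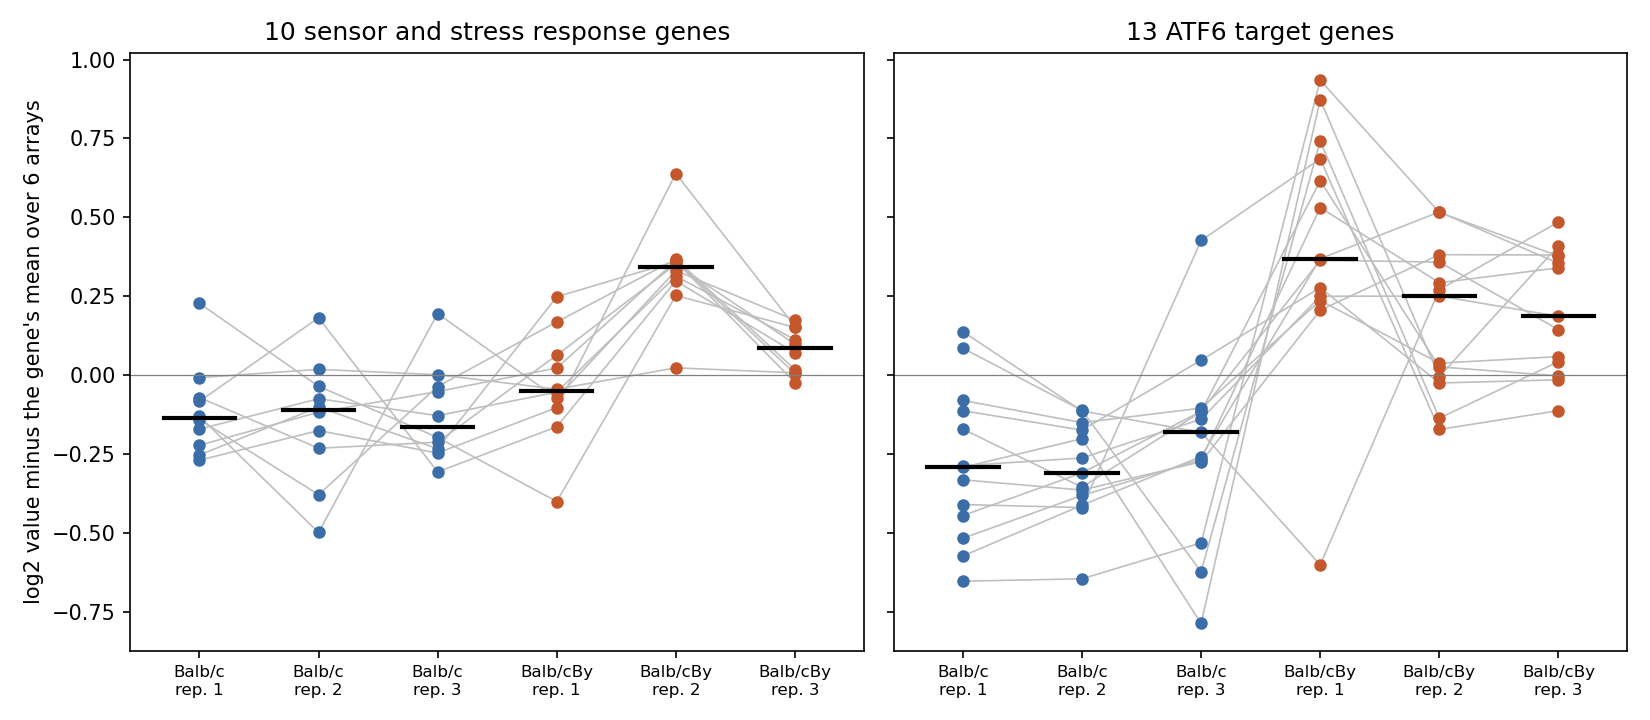
Log2 value minus the gene's mean over the 6 arrays (y axis) on each array (x axis) for the 10 sensor and stress response genes (left) and 13 ATF6 targets (right); points are genes, thin lines join the points of a gene, and black bars are medians. The left panel peaks on Balb/cBy replicate 2, with a median of 0.34, and the right panel is high on all 3 Balb/cBy arrays, with 9 of 13 genes highest on replicate 1.

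The ER stress element, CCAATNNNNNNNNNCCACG, to which ATF6 binds with NF-Y, was found in the windows of 7 of the 12 ATF6 targets that have one in RefSeq, in 0 of the 9 windows of the genes above, and in 0.119% of all windows. The 7 were Hspa5, Hsp90b1, Calr, Pdia6, Creld2, Syvn1 and Derl3, with differences from 0.16 to 1.22. As the list was drawn from known targets, this share describes the list and is no result of these arrays. The matches of Creld2 (chr15:88819520-88819538, minus strand), Syvn1 (chr19:6046532-6046550, plus strand) and Hspa5 (chr2:34772025-34772043, plus strand) are shown for comparison, with the fixed letters in capitals.
Creld2: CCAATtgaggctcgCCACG
Syvn1: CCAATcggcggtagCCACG
Hspa5: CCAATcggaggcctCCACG

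The XBP1 element TGACGTGG was likewise in 0 of the 9 windows and in 0.676% of all windows. These counts say only that the letters are absent from the windows searched. Of 19 XBP1 targets, which serve entry into the ER, export from it and folding, 18 read higher, with a median of 0.21. At an unadjusted p under 0.05 there were 3, all higher, against 2.59% of all genes higher. Srprb, a subunit of the signal recognition particle receptor, was at 0.46 ± 0.15 (SE). Sec23b, a coat protein of ER exit vesicles, was at 0.49 ± 0.18. Dnajb11, an ER co-chaperone that is also on the ATF6 list, was at 0.43 ± 0.17. Sec61a1, the channel of the ER membrane, differed by 0.21 ± 0.11 (SE). The 3 became 1 without Balb/c replicate 2 (1.42% of all genes higher) or without Balb/cBy replicate 2 (1.2% of all genes higher). The count was 5 without Balb/c replicate 1 (2.94% of all genes higher) and 4 without Balb/cBy replicate 3 (2.17% of all genes higher). Sec23b was at 0.31 without Balb/cBy replicate 2, and Dnajb11 at 0.23 without Balb/cBy replicate 1, the array of lowest weight.

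Targets of ATF4 and CHOP were read in 2 lists. Of 18 measured genes of amino acid supply and redox, 9 read higher and 9 lower, with a median of 0.02. Of the 18, 7 averaged under the olfactory receptor level, where differences are understated. Against 2.59% of all genes higher and 1.15% lower, 1 of the 18 had an unadjusted p under 0.05. This was Slc7a5, a transporter of large neutral amino acids, which read 8.15, 8.43 and 8.06 in Balb/c and 8.61, 8.48 and 8.69 in Balb/cBy, a difference of 0.38 ± 0.12 (SE). Its partner chain Slc3a2 differed by 0.21 ± 0.12, the aminotransferase Gpt2 by 0.17 ± 0.14, and Cth, which makes cysteine from cystathionine, by -0.31 ± 0.16 (SE). These 3 depended on single arrays: Slc3a2 was at 0.12 without Balb/cBy replicate 2, Cth at -0.16 without Balb/cBy replicate 1, and Gpt2 at 0.07 without Balb/c replicate 2 and 0.28 without replicate 1 of either substrain. The median of the list ran from 0.0030 to 0.05 without 1 array. The serine synthesis genes Phgdh and Psph differed by -0.12 and -0.08, and Psat1 by 0.11.

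Of 18 genes of signalling and transcription downstream of ATF4 and CHOP, 12 read higher and 6 lower. The median was 0.09, or 0.02 without Balb/c replicate 3 and 0.05 without Balb/cBy replicate 3. Of the 18, 4 averaged under the olfactory receptor level. Ero1a, an ER oxidase, was the 1 with an unadjusted p under 0.05, at 0.33 ± 0.14 (SE), against 2.59% of all genes higher. It was at 0.20 without Balb/c replicate 2 and kept that threshold in 2 of 6 fits that left out 1 array. Cebpg, a partner of ATF4, differed by 0.21 ± 0.10, and the hormone gene Fgf21 by -0.21 ± 0.10, with all 3 Balb/cBy arrays below the Balb/c arrays. The cell death gene Bbc3 differed by -0.24 ± 0.13 (SE), or -0.14 without Balb/c replicate 2 and -0.36 without Balb/c replicate 3. Bbc3 lay at or under the olfactory receptor level on 6 of 6 arrays. Atf3 differed by 0.48 ± 0.31 (SE), and its groups overlapped.

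Upstream of ATF4, the other eIF2 kinases gave small differences: Eif2ak1, activated by heme shortage, 0.145 ± 0.19, Eif2ak2, activated by double-stranded RNA, -0.08 ± 0.14, and Eif2ak4, activated by uncharged tRNA, -0.03 ± 0.09 (SE). Eif2ak2 lay at or under the olfactory receptor level on 6 of 6 arrays and Eif2ak4 on 4 of 6, where differences are understated. The list of kinases and eIF2 control held 14 measured genes, 10 higher and 4 lower, with a median of 0.16, or 0.07 without Balb/c replicate 2 and 0.24 without Balb/c replicate 1. The 5 subunits of eIF2B, the exchange factor that phosphorylated eIF2 inhibits, all read higher. They ran from 0.16 for Eif2b5 to 0.35 ± 0.13 (SE) for Eif2b2. Eif2b2 was the 1 gene of the list with an unadjusted p under 0.05, against 2.59% of all genes higher. It kept that threshold in 2 of 6 fits that left out 1 array. The groups still overlapped for Eif2b2, since Balb/c replicate 1 read 9.22 and Balb/cBy replicate 1 read 9.20. Eif2b4 differed by 0.22 ± 0.10, and Impact, an inhibitor of EIF2AK4 activation, by 0.38 ± 0.17 (SE), or 0.24 without Balb/cBy replicate 2. Of 9 mRNAs known as substrates of IRE1 decay, 0 had an unadjusted p under 0.05, against 2.59% of all genes higher and 1.15% lower. Of the 9, 7 read higher and 2 lower, with a median of 0.09. That median was 0.01 without Balb/cBy replicate 3, 0.02 without Balb/c replicate 3 and 0.14 without Balb/cBy replicate 1. Among them Col6a1 differed by 0.27 ± 0.12, Ces1d by -0.26 ± 0.13, Cyp1a2 by 0.21 ± 0.12 and Bloc1s1 by 0.14 ± 0.10 (SE). Ces1d was at -0.17 and Cyp1a2 at 0.13 without Balb/c replicate 1, and Cyp1a2 was at 0.32 and Bloc1s1 at 0.08 without Balb/c replicate 3.

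**Figure D4:**
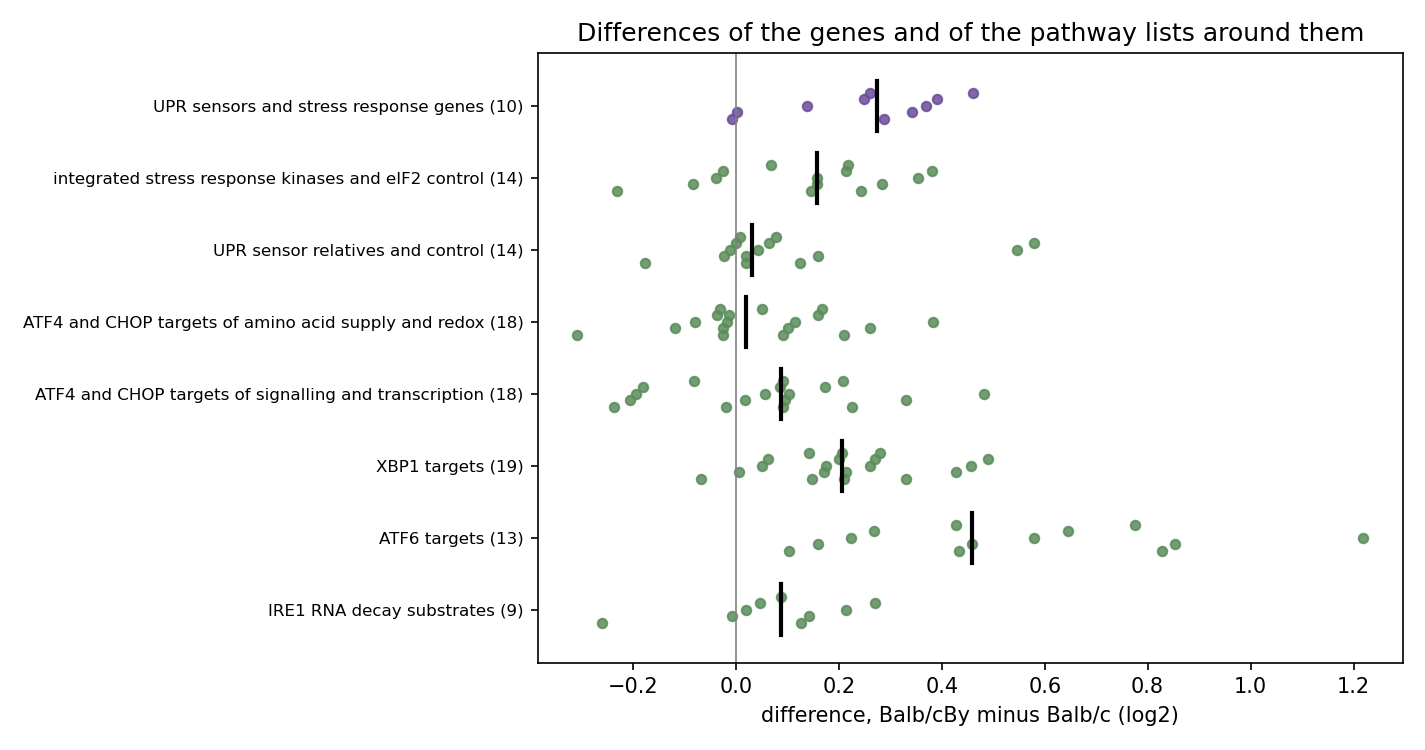
Difference between the substrains (x axis, Balb/cBy minus Balb/c, log2) for the 10 genes (purple) and the measured genes of 7 lists of the same pathways (green, number of genes in brackets); each point is a gene, vertical bars are medians, and vertical scatter within a line only separates points. The median is 0.27 for the 10 genes, 0.46 for ATF6 targets, 0.21 for XBP1 targets, and 0.02 and 0.09 for the ATF4 and CHOP target lists. In these last lists 7 of 18 and 4 of 18 genes averaged under the olfactory receptor level.

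Over the 7 lists together, 101 genes were measured besides the 10, and 76 read higher and 25 lower. None passed limma's adjusted p of 0.05. At an unadjusted p under 0.05 there were 15 higher and 0 lower, against 2.59% of all genes higher and 1.15% lower. With limma's array weights 4 passed, Creld2, Syvn1, Hyou1 and Manf, all of the ATF6 list, and 0 of the 10 sensor and stress response genes. How many genes outside the lists passed with array weights is not given here. The listed genes whose profile over the 6 arrays lay closest to that of Atf4, by the root mean square distance of centred log2 values, were Slc3a2 (0.08), Eif2b2 (0.09) and Eif2b4 (0.09), out of 86 above the median level. Among the 10, Eif2ak3 (0.10), Ern1 (0.11) and Xbp1 (0.11) were the nearest to Atf4, and Chac1 (0.24) and Atf6 (0.21) the farthest.

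Markers of other cell types, among them cells with a large ER of their own, were read beside these results. Of 6 plasma cell markers 3 read higher and 3 lower; their mean was 7.78 to 7.98 on the Balb/c arrays and 7.96 to 8.19 on the Balb/cBy arrays, with 4 of the 6 under the olfactory receptor level. Among them Jchain, the joining chain of secreted antibodies, differed by 1.12 ± 0.28 (SE), and it was highest on Balb/cBy replicate 3, at 8.70. Of 5 exocrine pancreas markers 0 read higher and 5 lower, with means of 8.01 to 8.60 in Balb/c and 7.87 to 8.02 in Balb/cBy. Stellate cell markers read higher in 6 of 7 (means 9.28 to 9.62 and 9.49 to 9.82) and neutrophil markers in 5 of 6 (6.68 to 6.95 and 6.97 to 7.16). The stellate differences ran from -0.03 to 0.53. Of the neutrophil markers 5 of 6 averaged under the olfactory receptor level, and S100a9, which lay above it, differed by -0.0018. T and NK cell markers were lower in 4 of 4 (7.77 to 7.92 and 7.62 to 7.75) and B cell markers in 4 of 4 (7.41 to 7.54 and 7.23 to 7.35). In each of these lists 2 of 4 averaged under the olfactory receptor level. Kupffer cell markers (4 of 6 higher), endothelial markers (4 of 6) and cholangiocyte markers (1 of 5) gave means whose ranges overlapped between the groups. The ranges of the stellate, plasma cell and exocrine pancreas means overlapped too. Of the cholangiocyte markers 4 of 5 averaged under the olfactory receptor level. The part of these cells in the differences above was not tested.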

How the data were processed

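Total RNA of 6 livers was hybridised to Affymetrix GeneChip arrays. The deposited table holds log2 values, 1 per probe set and array, made by the authors with RMA (background correction, quantile normalization, summary over probes), per the submitters' processing notes; no software version or genome build is given in these sources. Of 41345 probe sets, 23521 had 1 gene symbol in the platform annotation and were tested, 1814 had several and 16010 were unlisted. A gene with several probe sets is given by the one with the highest mean.

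The substrains were tested against each other in limma 3.58.1 (R 4.3.3; lmFit and eBayes, group as the single term, two-sided, Benjamini-Hochberg over all tested probe sets, threshold 0.05), tested on simulated data. Differences are Balb/cBy minus Balb/c with the moderated standard error (SE). Counts over all genes use 1 probe set per gene. The number of arrays limits the precision. The 10 genes and all lists were chosen with earlier results of these data known; of 115 pathway entries 105 were measured, some genes being on 2 lists. Named beside the 10 genes were up to 4 genes per list with the smallest p and the 3 nearest to Atf4. Acads, marker genes, promoter matches, eIF2B subunits, eIF2 kinases, serine synthesis genes, Atf3 and Sdf2l1 were added after values were seen.

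Alternatives were limma with array weights, with trend and robust moderation, with the replicate block, without each array, without the 2 arrays of lowest weight (added after seeing the data), renewed quantile normalization, median centring, averaged probe sets, brighter probe sets alone and every probe set.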

Additional observations from a re-analysis of the deposited data

How the results depend on the processing

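The count of the 10 genes passing limma's adjusted p of 0.05 was 0 under all 15 alternatives, and leaving out 1 array gave 0 to 0. The count with groups apart was 5 to 7 against 6; without 1 array it was 6 or 7, while the share over all genes was 6.73% to 12.8% against 4.32%. Of the 101 other pathway genes, 4 passed with array weights, 1 without the 2 arrays of lowest weight and 0 otherwise, and leaving out 1 array gave 0 to 0. The share of all genes passing with array weights or without those 2 arrays is not given here. Of the 10 genes, 7 were higher at an unadjusted p under 0.05 with array weights, against 4. The share of all genes with array weights is not given here, so the rise cannot be read as particular to these genes. Listed genes lower at that threshold numbered 0 to 5 over the settings, with 5 under renewed quantile normalization and 0 in the fit reported above. Chac1 turned to -0.0608 with renewed quantile normalization and ran from -0.12 to 0.20 without 1 array. Trib3 turned to 0.0045 with array weights, 0.0003 with median centring and 0.010 without the 2 arrays of lowest weight, and ran from -0.022 to 0.011 without 1 array. The cause was not tested. The other 8 genes kept their direction in every setting run; with brighter probe sets alone Ddit3 was not measured.

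Same-numbered arrays of the 2 groups did not deviate together (correlations of -0.32, -0.19 and -0.23), while arrays of different numbers gave 0.0072 to 0.22. Deviations within each group sum to 0, so these values cannot settle whether a number marks anything shared. With the replicate block 0 of the 10 genes and 0 of the 101 passed, and 3 of the 10 were higher at an unadjusted p under 0.05. The share of all genes with the block is not given here. For 0 of 3 numbers did the arrays correlate best with each other. Among the 10 genes, signal near background limits Ddit3 and Trib3.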

Other observations

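Of 14 measured relatives of the sensors and their processing factors, 11 read higher in Balb/cBy and 3 lower, with a median of 0.03. Without Balb/cBy replicate 2, 6 of 14 read higher and the median was -0.0097, while it was 0.01 without Balb/c replicate 3 and 0.06 without Balb/cBy replicate 1. The site proteases that cut ATF6, Mbtps1 and Mbtps2, differed by -0.02 and 6e-04, and Rtcb, the ligase that joins Xbp1 mRNA after IRE1 cuts it, by -0.01. The groups did not overlap for Hspa5, the main ER chaperone, which is also on the ATF6 list, at 0.58 ± 0.12 (SE). Nor did they for Creb3l2, an ER-bound factor of the ATF6 kind, which read 9.22, 9.32 and 9.23 in Balb/c and 9.44, 10.09 and 9.89 in Balb/cBy, a difference of 0.55 ± 0.16 (SE). Creb3l3, its liver-rich relative, went the other way at -0.18 ± 0.10 (SE), with all 3 Balb/cBy arrays below the Balb/c arrays, and at -0.12 without Balb/c replicate 3. Pdia6 differed by 0.16 ± 0.12 (SE), or 0.06 without Balb/cBy replicate 1. None of these passed limma's adjusted p of 0.05. At an unadjusted p under 0.05 there were 2 of the 14, both higher, against 2.59% of all genes higher.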
